A study of Mus musculus with 2 samples.

Results

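Pericytes (PER) were examined in single-nucleus ATAC-seq (snATAC-seq) of the mouse primary motor cortex. The members are all nuclei whose deposited annotation reads PER, and there were 111 of them among 16314 nuclei, 55 of 7440 in replicate 1 and 56 of 8874 in replicate 2. Both libraries come from 1 dissection, MOp-2, and were made on the droplet-based 10x platform. The methods describe adult C57BL/6J male mice of 56 to 63 days, with the tissue of several animals pooled into a replicate. How many animals went into each 10x library is not stated there. There was 1 condition, with no treatment or genotype to compare, so the comparisons below are between pericytes and the other 2 vascular names, vascular endothelial cells (VEC, 392 nuclei) and vascular and leptomeningeal cells (VLMC, 326 nuclei), within each library. No p-value is given. Nuclei of 1 library are not replicates, and an exact test over sign changes of 2 within-library differences cannot give a two-sided p below 0.5.

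Pericytes are mural cells that sit on the outer face of capillaries, inside the basement membrane they share with the endothelium. They help to keep the blood-brain barrier tight and to set capillary tone. Endothelial cells line the same vessels from within, whereas VLMCs are fibroblast-like cells of the meninges and of the sheaths around larger vessels. snATAC-seq tags open chromatin with the Tn5 transposase, so that each nucleus yields a set of sequenced DNA fragments. The study named cell groups by accessibility at the promoters and bodies of marker genes, and 3 such genes are listed for pericytes. Kcnj8 encodes a pore subunit of ATP-sensitive potassium channels and lies on the minus strand of chromosome 6 from 142564837 to 142571614 (mm10, GENCODE M21). Rgs5 encodes a regulator of G-protein signalling and lies on the plus strand of chromosome 1 from 169655501 to 169695813. Flt1 encodes a receptor for vascular endothelial growth factors, lies on the minus strand of chromosome 5 from 147561604 to 147726011, and is listed for VEC as well. All 3 are annotated as protein-coding genes. The tables used here give 1 row of summary values per nucleus and no accessibility by gene, so the name could not be checked against these markers and was used as deposited.

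Pericytes were the smallest of the 17 annotated groups in both libraries. They made up 0.739% of nuclei in replicate 1 (exact 95% interval 0.557 to 0.961, counting error only) and 0.631% in replicate 2 (0.477 to 0.819), or 0.685% ± 0.0765 (SD, n = 2 libraries). The intervals overlap, and the share in replicate 1 was 1.17 times that in replicate 2 with a counting interval of 0.809 to 1.70, which includes 1. Of the 7 non-neuronal groups together, pericytes held 2.02% (1.53 to 2.62) and 1.79% (1.35 to 2.31). Among the 3 vascular names alone they held 16.035% (12.3 to 20.4) of 343 nuclei in replicate 1 and 11.5% (8.82 to 14.7) of 486 in replicate 2. Pericytes were thus a minor part even of the vascular nuclei, below VEC and VLMC in each library.

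Endothelial nuclei outnumbered pericytes in both libraries, but by a different margin. There were 55 PER and 145 VEC nuclei in replicate 1, a pericyte to endothelial ratio of 0.379 (0.273 to 0.521). In replicate 2 there were 56 and 247, a ratio of 0.227 (0.167 to 0.304). The ratio was 1.67 times higher in replicate 1, and the counting interval of that fold, 1.09 to 2.56, excludes 1. The share of pericytes in replicate 1 was 1.17 times (0.809 to 1.70, which includes 1) the share in replicate 2. That of VEC was 0.700 times (0.572 to 0.858). The mean ratio was 0.303 ± 0.108 (SD, n = 2).

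Some of the endothelial nuclei lay in a range of the map that was filled in 1 library only. At a umap1 of -4 to -3.4, coordinates of the deposited map of nuclei described further on, lay 89 of the 247 VEC nuclei of replicate 2 (36.0%) and none of the 145 of replicate 1. Without them the pericyte to endothelial ratio was 0.354 (0.256 to 0.484) in replicate 2 against the same 0.379 in replicate 1, a fold of 1.07 with an interval of 0.693 to 1.65, which includes 1. These nuclei were set apart after the data were seen and by their library, so that leaving them out had to bring the ratios closer, and no test is made of it. The 89 nuclei were defined by umap1 alone and did not form 1 patch, with some near a umap2 of 6.0 and others near 4.7. Other VEC nuclei of replicate 2 lay just past the cut, such as 1 at a umap1 of -3.39. Whether the 89 are endothelial nuclei could not be checked against markers here.

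By its point values, the ratio of pericytes to VLMC nuclei varied less. It was 0.385 (0.277 to 0.528) in replicate 1, with 143 VLMC nuclei, and 0.306 (0.223 to 0.415) in replicate 2, with 183. The fold between the libraries was 1.26 with an interval of 0.816 to 1.94, which includes 1. At these counts a difference was thus not detectable. That interval overlaps the 1.09 to 2.56 for VEC, so the ratios were not shown to differ in how far they varied. Where the denominator was VLMC the mean was 0.345 ± 0.0556 (SD, n = 2).

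**Figure D1:**
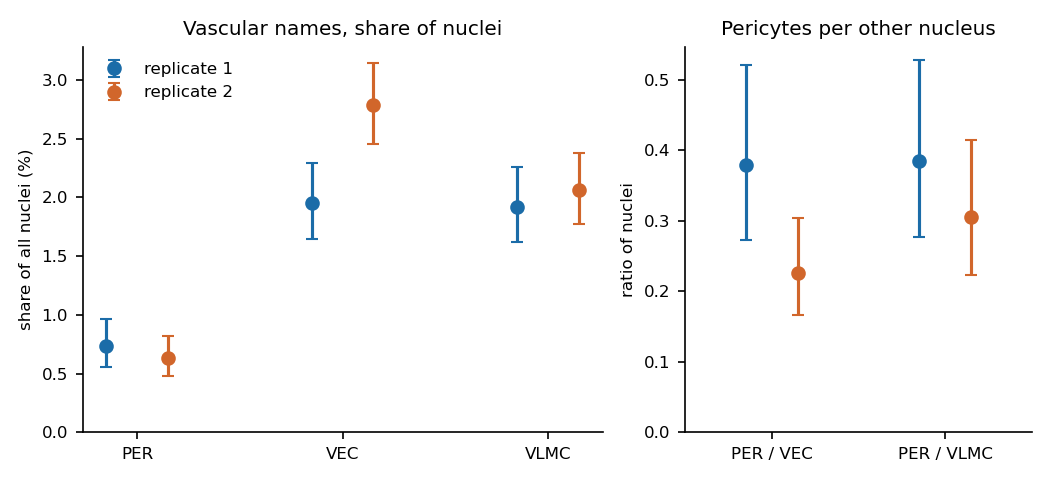
Left, share of all nuclei (%) for PER, VEC and VLMC, and right, the number of PER nuclei per VEC or VLMC nucleus, in each library, drawn as points with 95% Clopper-Pearson intervals (counting error only). The PER intervals overlap between the libraries (0.557 to 0.961 and 0.477 to 0.819) and the VEC intervals do not.

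Pericyte nuclei carried few fragments. Unique fragments are those left after filters on mapping and pairing and after duplicate removal. In replicate 1 the lowest of 55 pericyte nuclei had 1108, the median 2339 and the highest 16658. In replicate 2 the lowest of 56 had 1076, the median 2066 and the highest 10542. The mean of the medians was 2203 ± 193 (SD, n = 2), and each median ranked 16 of 17 in its library. Microglia (MGL), the resident immune cells of the brain, were the next group below in each library with medians of 2278 and 2063. Those differences were smaller than the SD of the pericyte medians between the libraries.

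The pericyte median fell from replicate 1 to replicate 2, as did the median over all nuclei. The pericyte median in replicate 2 was 0.883 times that in replicate 1, and the median over all nuclei was 0.885 times. Among the 17 groups the pericyte factor was in place 3 from the lowest, so most groups fell less. VLMC changed by a factor of 0.917 and VEC by 0.764, the lowest of the 17 groups. The quartiles of pericytes shifted as well, from 1985 and 2814 fragments in replicate 1 to 1551 and 2489 in replicate 2.

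Endothelial nuclei were deeper and far more spread than pericytes. VEC had medians of 4256 and 3252 unique fragments, so pericytes had 0.550 and 0.635 of the endothelial median in the same library. Against VLMC, with medians of 2771 and 2541, the ratio was 0.844 and 0.813. In both libraries and against both groups pericytes had the lower median. The mean ratio was 0.592 ± 0.0606 for VEC and 0.829 ± 0.0219 for VLMC (SD, n = 2). The upper quartile of pericytes was 1.42 times the lower one in replicate 1 and 1.60 times in replicate 2, the narrowest of the 17 groups in each, whereas that of VEC was 3.70 and 3.03 times, the widest. By the SD of log10 unique fragments, which also counts the few deep nuclei, pericytes (0.187 and 0.186) were close to VLMC (0.190 and 0.184) and ranked 13 and 15 of 17.

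**Figure D2:**
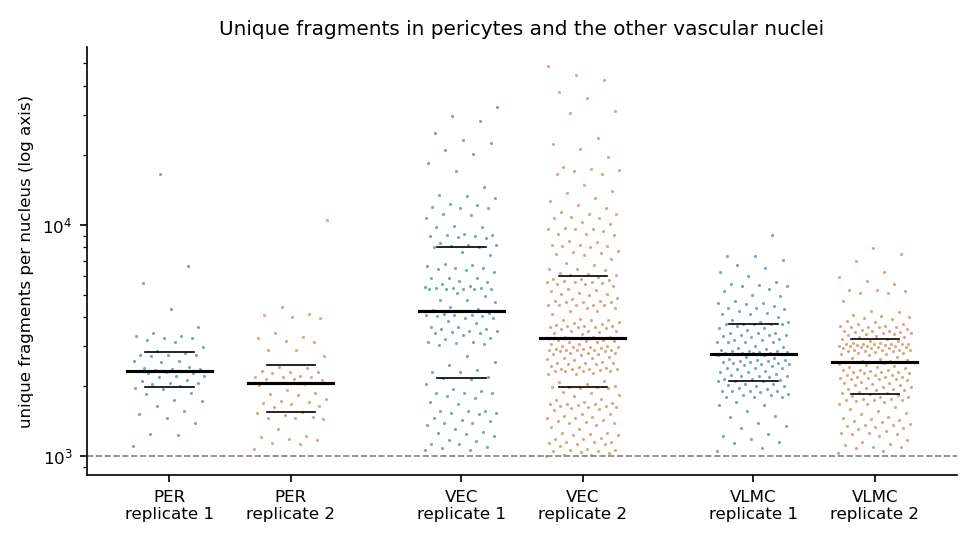
Unique fragments per nucleus (log axis) for PER, VEC and VLMC in each library, 1 point per nucleus, with the median as a thick line, the quartiles as thin lines and 1000 fragments dashed. Pericytes form a narrow band around 2339 and 2066 with few deep nuclei, and VEC has the widest spread.

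The pericyte to endothelial ratio differed with the range of fragments in which it was read, a comparison added after the data were seen. From 1000 to under 2000 fragments it was 0.412 in replicate 1 (14 PER, 34 VEC) and 0.413 in replicate 2 (26 PER, 63 VEC). From 2000 to under 3000 it was 2.90 in replicate 1 (29 PER, 10 VEC) and 0.380 in replicate 2 (19 PER, 50 VEC). From 3000 to under 5000 it was 0.250 (9 and 36) and 0.185 (10 and 54). Of these 3 ranges the libraries differed most in the middle one, which held 52.7% of the pericytes and 6.90% of the endothelial nuclei of replicate 1, and 33.9% and 20.2% of those of replicate 2. Without the 89 VEC nuclei found in replicate 2 alone, its ratios in the 3 ranges were 0.565, 0.792 and 0.357. VLMC nuclei, at 39.9% and 36.1% in the middle range, were distributed more like pericytes.

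Few pericytes had many fragments. With at least 5000 unique fragments there were 3 pericytes in replicate 1, or 5.45%, and 1 in replicate 2, or 1.79%. In VEC 44.8% and 32.4% of the nuclei reached that depth, but in VLMC only 10.5% and 6.56%. Of microglia, 13 of 514 did in replicate 1 and 28 of 514 in replicate 2, so few deep nuclei were not particular to pericytes. At the low end, 14 pericytes of replicate 1 and 26 of replicate 2 lay under 2000 fragments, 25.5% and 46.4%. The shares were 23.4% and 25.5% in VEC, 20.3% and 31.1% in VLMC, and 35.4% and 46.5% in microglia. The deposited tables hold no nucleus under 1000, so pericytes lost to that minimum cannot be counted here. Summed over nuclei, pericytes contributed 151730 unique fragments in replicate 1 and 130409 in replicate 2, which was 0.315% and 0.236% of all unique fragments. That sum is the depth from which a pericyte accessibility profile of these libraries would be drawn, against 897129 and 1399499 for VEC.

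Fragments of pericytes mapped well. The tables list total (TN), uniquely mapped (UM), properly paired (PP) and unique (UQ) fragments for each nucleus. In replicate 1 the pericyte medians at these steps were 2855, 2749, 2741 and 2339. In replicate 2 they were 2586, 2438, 2423 and 2066. A median of 82.2% and 81.3% of the total fragments of a pericyte was left as unique fragments. Over nuclei of all depths, mapping was the step at which pericytes differed by the most percentage points from the other vascular names.

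The median uniquely mapped share of pericytes was 96.287% in replicate 1 (from 91.7 to 97.3 over nuclei) and 96.299% in replicate 2 (87.5 to 97.8). This was the highest of the 7 non-neuronal groups in both libraries by the median over nuclei, and ranked 2 and 5 of 17. Over summed fragments pericytes were below oligodendrocytes (OGC), with 95.764% against 95.883% in replicate 1 and 95.750% against 95.865% in replicate 2. Pericytes lay 1.28 and 1.98 percentage points above VEC (95.003% and 94.3%) and 0.706 and 0.719 points above VLMC (95.6% in each). The pericyte medians hardly differed between the libraries (SD 0.00813 points), but those of VEC did (SD 0.485 points). The difference from VEC itself had an SD of 0.493 points over the 2 libraries, and that from VLMC 0.00919 points. Nuclei with under 94% were 3 of 55 and 5 of 56 pericytes, but 39 of 145 and 99 of 247 endothelial nuclei.

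The order was the same among nuclei of like depth. In each of the 3 ranges from 1000 to under 5000 fragments, pericytes were above VEC by 1.73 to 3.06 points and above VLMC by 0.374 to 1.01 points, in both libraries. The lowest of these counts were 9 pericytes in the range from 3000 and 10 VEC nuclei in that from 2000, both in replicate 1. Within pericytes, Spearman's rho between unique fragments and the uniquely mapped share was -0.19 (n = 55) and -0.32 (n = 56), and within VEC it was 0.30 (n = 145) and 0.35 (n = 247). These describe nuclei of the same library that share its sequencing run, and they are no test.

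Over nuclei of all depths, pericytes differed from VEC and VLMC by fewer percentage points in pairing and duplication. By rank they still stood high. The pericyte median was 1 and 2 of 17 for the properly paired share, and 2 and 1 for the duplicate share, where VLMC ranked 1 and 2. The properly paired share of uniquely mapped fragments had medians of 99.7% and 99.6%, which were 0.0592 and 0.0850 points above VEC and 0.0925 and 0.0373 points above VLMC. The duplicate share, the part of properly paired fragments removed as copies, was 14.2% in replicate 1 and 15.0% in replicate 2. It lay 0.158 and 0.519 points above VEC, and its difference from VLMC was -0.0121 points in replicate 1 and 0.0691 in replicate 2. These differences over all depths were smaller than the 0.807 points by which the pericyte duplicate share itself differed between the libraries.

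Among nuclei of like depth the duplicate shares differed more. From 1000 to under 2000 fragments pericytes minus VEC was -0.76 points in replicate 1 and 0.568 in replicate 2, from 2000 to under 3000 -0.0081 and 1.27, and from 3000 to under 5000 0.883 and 2.15. Pericytes minus VLMC ran from -0.0657 to 0.827 over the same ranges. The duplicate share was thus higher in pericytes than in VEC in both libraries in the deepest of the 3 ranges, with 9 and 10 pericytes, where in replicate 2 it exceeded the difference of 1.73 points in mapping. The 89 VEC nuclei found in replicate 2 alone had a low median duplicate share of 12.7%, against 15.0% in the other VEC nuclei of that library. Without them the differences in replicate 2 were 0.0402, 0.192 and 0.923 points, and those in the uniquely mapped share 3.55, 2.65 and 2.55 points. Deeper pericytes had the higher duplicate shares, with rho of 0.44 and 0.38 between unique fragments and the duplicate share, given as a description of nuclei and not as a test. The mitochondrial column was 0 in every nucleus.

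In the UMAP embedding, a map in which nuclei of similar accessibility lie close together, pericytes formed an island with no border. All 30 nearest neighbours of every pericyte were pericytes, and so were all 50. No nucleus of another name had a pericyte among its 30 nearest, and none lay within the range of coordinates that pericytes covered, 1.42% of the range of umap1 and 3.95% of that of umap2. Names and map both come from the accessibility data, so this describes how the names were drawn and is no separate check on them. Full separation was also not particular to pericytes, since 6 of the 17 groups, VLMC among them, had own-name neighbours throughout.

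The nearest group was the endothelium. For all 111 pericytes the closest nucleus of another name was VEC, at 1.88 to 2.78 units, whereas the closest pericyte was at most 0.0353 units away. It was the same VEC nucleus in every case, one of the 89 found in replicate 2 alone, and all of its own 30 neighbours were VEC. Without those 89 the nearest was still VEC for all 111 pericytes, again a single nucleus, at 2.02 to 2.92 units. That nucleus was also of replicate 2 and lay at a umap1 of -3.39, just past the cut at -3.4. Leaving out the 89 therefore does not show which nucleus would be nearest without this side of the VEC nuclei of replicate 2. By median positions VEC was 3.36 units away, the interneuron group CGE 4.10, astrocytes 5.87 and VLMC 11.2, the latter in place 8 of 16. Distances in such a map have no unit and are not proportional to differences in accessibility.

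Endothelial nuclei did not keep to 1 place in the same way. Of 392 VEC nuclei, 21 had under 50% VEC among their 30 nearest, 7 in replicate 1 and 14 in replicate 2, and 12 of the 21 lay among layer 6 intratelencephalic neurons (ITL6GL). None of them lay beside pericytes, and no PER or VLMC nucleus was placed like this. Without these 21 nuclei, a choice made after the data were seen, the pericyte to endothelial ratio was 0.399 in replicate 1 and 0.240 in replicate 2.

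The libraries were evenly mixed among pericytes. Of the 30 nearest neighbours of a pericyte, 50.8% came from the other library, where an even mixture of 55 and 56 nuclei gives 50.5%. The share was 50.7% for nuclei of replicate 1 and 50.9% for those of replicate 2, and with 10 neighbours 52.2% and 49.5%. The ratio to an even mixture was 1.01, the same as for VLMC, against 0.748 for VEC, which was the lowest of the 17. Pericytes of the 2 libraries were thus not set apart in the map, although their endothelial neighbours were.

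**Figure D3:**
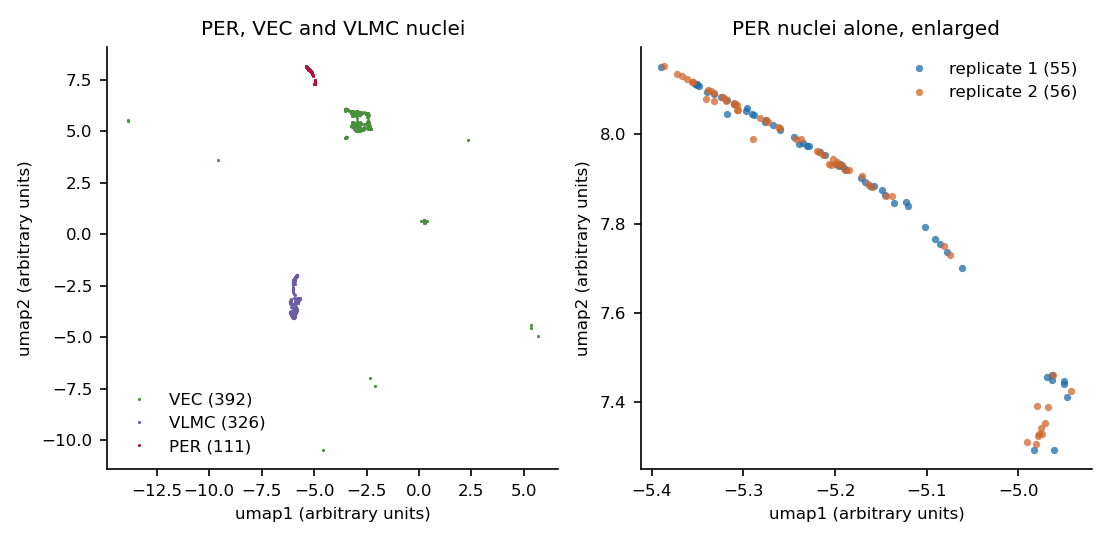
Left, positions of PER, VEC and VLMC nuclei in the deposited embedding (umap1 and umap2, arbitrary units), and right, the 111 PER nuclei enlarged and coloured by library. Pericytes lie apart as a thin streak with a gap at a umap2 of 7.46 to 7.70, and both libraries occur on both sides of it.

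Within the island the pericytes lay on a thin streak, with 98.8% of the variance of their positions along 1 axis. The streak had 1 clear break. No pericyte lay between a umap2 of 7.46 and 7.70, a gap of 0.239, whereas the next largest was 0.0467. The smaller patch below the gap held 19 nuclei, 8 of 55 in replicate 1 (14.5%, 6.495 to 26.7) and 11 of 56 in replicate 2 (19.6%, 10.2 to 32.4), and these intervals overlap. The patches were told apart after the positions were seen, so the values that follow carry no test.

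The smaller patch, at the end of the streak towards the endothelium, held deeper nuclei that mapped less well. Its median was 2642 unique fragments in replicate 1 and 2417 in replicate 2, against 2308 and 1831 in the larger patch. Of the 4 pericytes with at least 5000 fragments, the 3 deepest (16658, 10542 and 6611) were in the smaller patch and 1 (5622) in the larger. Under 2000 fragments there was 1 of 19 nuclei in the smaller patch and 39 of 92 in the larger.

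The uniquely mapped share of the smaller patch was 95.7% in replicate 1 and 95.5% in replicate 2, and that of the larger patch 96.4% and 96.6%. Under 94% there were 6 of 19 and 2 of 92 nuclei. Among nuclei of 2000 to under 3000 fragments the medians were 95.742% (12 nuclei) and 96.4% (36 nuclei), so the order was the same at like depth. The 2 poorly mapped nuclei of the larger patch, at 91.7% and 89.3%, were the pair at its lower end, next to the gap. All nuclei of the smaller patch were within 1.88 to 1.99 units of the nearest VEC nucleus and all of the larger patch at 2.23 to 2.78. That order follows from the umap2 by which the patches were told apart, since the same VEC nucleus, at a lower umap2, was nearest to all. Whether the patches differ in accessibility at any gene was not analysed here, and the parts of depth and of doublets in them were not tested.

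**Figure D4:**
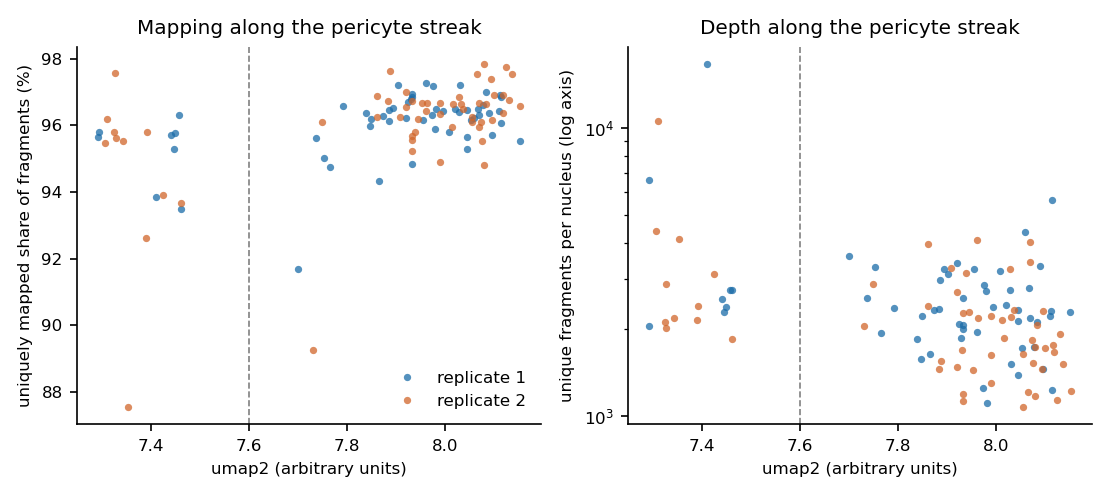
Uniquely mapped share of fragments (%) and unique fragments per nucleus (log axis) against umap2 (arbitrary units) for the 111 PER nuclei of replicates 1 and 2, with the dashed line at 7.6 parting the patches. The smaller patch on the left holds 6 of the 8 nuclei under 94% and the 3 deepest nuclei.

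Along the whole streak, from the smaller patch upwards, the uniquely mapped share tended to be higher and the fragments fewer. Spearman's rho with position on the long axis was 0.39 and 0.44 for the uniquely mapped share in replicates 1 and 2, and -0.23 and -0.45 for unique fragments. Within the larger patch alone it was 0.21 (n = 47) and 0.26 (n = 45) for the mapped share along umap2, and -0.12 and -0.27 for unique fragments. For the mapped share VLMC nuclei had a rho of the same size along their own long axis, -0.43 and -0.42. The sign only reflects which end is counted first. A gradient of that size in the mapped share was thus seen in VLMC too, whereas their rho for unique fragments was only 0.12 and 0.07.

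Of the barcodes, 105 occurred in both libraries, 1.41% of replicate 1 and 1.18% of replicate 2. They included 0 of the 55 pericytes of replicate 1 and 1 of the 56 of replicate 2. VEC had 3 such nuclei in each library, and VLMC had 2 in replicate 1 and 1 in replicate 2. The pericyte had 2059 unique fragments, and its barcode belonged to an ITL6GL nucleus of 13053 in replicate 1. That pericyte is the nucleus with a uniquely mapped share of 89.3% at the lower end of the larger patch. Whether its barcode and its mapping are related was not tested.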

How the data were processed

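Values came from 2 snATAC-seq libraries of MOp-2, replicates 1 and 2 by title. The authors deposited for each nucleus raw counts of its fragments (in total, after unique mapping, after pairing, after duplicate removal, and mitochondrial), log10 values equal to the log10 of unique fragments plus 1, and the coordinates of a UMAP embedding, which are a score with no unit. Per the methods, the authors aligned reads to mm10 with bwa, filtered fragments on mapping quality, pairing and length, removed duplicates with SnapTools, and removed nuclei of low depth or TSS enrichment, doublets and barcode collisions. The processing notes name BWA and Cell Ranger ATAC, but the sources used here give neither versions nor the role of the latter. Replicate 1 held 48179226 and replicate 2 55337466 unique fragments.

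Shares have exact Clopper-Pearson 95% intervals, ratios the interval of a binomial share turned into odds, and folds between libraries log-scale intervals, all for counting error only. Neighbours were the 30 nearest in the embedding. Means and SDs are over 2 libraries. The interval and neighbour functions were tested on simulated data. Members and lists were chosen with earlier results of these data known. Genes were named only as listed markers, and no gene was picked by value. Names other than PER, VEC and VLMC appear by rank next to PER, by 5% of its neighbours, or after their values were seen (CGE, astrocytes, ITL6GL). The alternatives tried were minimums of 2000 and 5000 fragments, omission of the 5% deepest nuclei, each library alone, pooling, geometric means, summed fragments and 10, 50 or within-library neighbours. Leaving out VEC nuclei apart from VEC, the VEC patch of replicate 2 or the smaller pericyte patch, and ranges of fragments, were chosen after seeing the data. Neighbours were found with scikit-learn 1.9.0, intervals with scipy 1.17.1, tables were read with pandas 2.3.3 and numpy 2.4.6 in Python 3.11.15, and figures were drawn with matplotlib 3.10.9. No doublet caller was run.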

Additional observations from a re-analysis of the deposited data

How the results depend on the processing

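Of 82 values recomputed for 11 results, 62 stayed within 1 SD of the mean over the 2 libraries and 20 moved further. An SD from 2 libraries is itself imprecise, and either library alone lies within it by construction. With at least 2000 fragments the share of pericytes was 0.496% of all and 1.62% of non-neuronal nuclei, their median 2491 fragments, the ratio of medians to VEC 0.507, and the uniquely mapped and properly paired shares 96.209% and 99.696%. With at least 5000, which left 3 and 1 pericytes, these were 0.0451%, 0.752%, 8577, 0.996, 95.9% and 99.8%, the ratios of nuclei to VEC and VLMC 0.0293 and 0.142, the ratio of medians to VLMC 1.48, and the duplicate share 15.6%. Own-name neighbours were then 10.0%, since only 3 other pericytes remained among 30 neighbours. Geometric means gave 0.860 for the ratio to VLMC, summed fragments a uniquely mapped share of 95.757%, and leaving out the smaller patch 96.466%. Pericytes stayed below VLMC in fragments in all these settings but the minimum of 5000. Depth limits every share, since pericytes lie close to the deposited minimum. Without the 89 VEC nuclei found in replicate 2 alone, the ratio of nuclei to VEC was 0.367 and that of medians 0.575. No paired analysis was possible between conditions because the design holds a single one, and the comparisons with VEC and VLMC are made within each library, with no test.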
